A study of Mus musculus with 6 samples.

Results

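Contractile actin genes of serum response factor (SRF) and its cofactors were examined in mouse mammary tumor spheroids treated with recombinant SLURP1. The genes were chosen by name. They were Srf itself, the actins Acta2, Actb and Actg1, the tropomyosins Tpm1 and Tpm2, the calponins Cnn1 and Cnn2, the calponin-related gene Tagln and the myosin light chain gene Myl9. All 10 were found, among 54146 genes in the expression table. D2A1 cells, a mouse mammary tumor cell line, were grown in 3D Matrigel, a basement membrane gel, in DMEM medium with 10% FBS. They were harvested on the fifth day. In 3 libraries the cells had received rSLURP1, a recombinant form of a secreted protein of the Ly6/uPAR family, and in 3 they had received rGST, recombinant glutathione S-transferase, as the control protein, both at 50 nM. The control libraries thus also carry a recombinant protein, and no untreated library was analysed here. RNA was measured by bulk RNA-seq of polyadenylated RNA, and expression is given as TPM (a count of transcripts scaled to a common total), which corrects for transcript length and has the same sum in each library. The sources do not say that the libraries came from separate cultures, so p-values measure the spread between these libraries, which may be technical. In addition, fewer cells of a type and less RNA per cell cannot be told apart in bulk RNA.

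SRF is a transcription factor that binds the CArG box, a short DNA element, and it relies on cofactors of different kinds. Myocardin-related transcription factors (MRTF-A and MRTF-B, the genes Mkl1 and Mkl2 in this table) are held by actin monomers, are released when monomers are built into filaments, and then turn on contractile and cytoskeletal genes, actin genes among them. Ternary complex factors (Elk1, Elk3 and Elk4) respond to MAP kinase signaling and turn on immediate early genes such as Fos and Egr1.

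To show where SRF could bind near these genes, the CArG box was searched for in RefSeq promoters of the GRCm38.p6 assembly, which reach from 250 bases before to 50 bases after the transcription start. The box was taken as CC, then 6 bases that are each A or T, then GG, a pattern that reads the same on both strands. Of the 8 genes with an entry (Actb and Tagln had none), 4 held at least 1 box. Srf, Actg1, Myl9 and Cnn2 were these genes, and Acta2, Tpm1, Tpm2 and Cnn1 held none in the 300 bases searched. For Acta2, Tpm1 and Tpm2 most of these bases lie inside the gene as annotated in GENCODE M21. Little of the sequence upstream of that annotation was therefore searched, and boxes with a mismatch were not counted. The box was present in 1.81% of all 27025 genes with an entry (488 genes). The boxes are shown in capitals with 20 bases on each side, 5′ to 3′ on the strand of the gene:
Srf: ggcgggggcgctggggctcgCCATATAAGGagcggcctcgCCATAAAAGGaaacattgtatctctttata
Actg1: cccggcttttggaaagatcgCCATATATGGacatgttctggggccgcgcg
Myl9: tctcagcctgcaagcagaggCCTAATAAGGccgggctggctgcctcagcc
Cnn2: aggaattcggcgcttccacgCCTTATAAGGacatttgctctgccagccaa
The Srf stretch, chr17:46556195-46556264 on the minus strand, held 2 boxes, which began 82 and 62 bases before the start. In Actg1, chr11:120348556-120348605 on the minus strand, the box began 90 bases before the start. In Myl9, chr2:156775283-156775332 on the plus strand, it began 161 bases before the start, and in Cnn2, chr10:79988524-79988573 on the plus strand, 56 bases before it. All 4 stretches lie upstream of their own gene in the GENCODE M21 annotation and do not overlap it. Overlap with other genes was not searched for. A match is a description of the letters, not of binding. Whether SRF was bound was not measured.

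The values of Krt18, a keratin of simple epithelium, and Vim, the intermediate filament gene of mesenchymal cells, were checked first because the contractile genes are also markers of smooth muscle cells, pericytes and myofibroblasts. Krt18 had 195.6 TPM with rGST and 197.7 with rSLURP1, whereas Epcam, Krt5 and Krt14 were listed at 0 in all 6 libraries and Cdh1 was near 0. As deposited, Krt18 did not pass the test (log2 fold change 0.02, adjusted p = 0.712 in limma). It was higher with median-ratio scaling (0.37, adjusted p = 1.07e-04) and after a length and GC correction described below (0.25, adjusted p = 6.47e-04). Krt8 and Trp63, also epithelial markers, were lower, at 1.56 and 0.697 TPM (log2 fold change -0.60, adjusted p = 0.00968 in limma) and at 4.01 and 1.93 TPM (-0.78, adjusted p = 0.00158). Krt8 passed the filter only because of its rGST libraries. With median-ratio scaling Krt8 was at -0.41 (adjusted p = 0.0554 in limma) and Trp63 at -0.52 (adjusted p = 0.0165). Neither passed after the length and GC correction (adjusted p = 0.146 and 0.059). Vim had 1259 ± 78.4 TPM with rGST and 665 ± 30.3 TPM with rSLURP1 (SD, n = 3 each). The 10 epithelial markers summed to between 198.5 and 205.4 TPM with rGST and between 199.4 and 203.2 with rSLURP1, nearly all of it Krt18. The 10 mesenchymal markers summed to between 1745 and 1893 TPM and between 837 and 898, and all 6 of them that could be tested were lower, as were 58.5% of all tested genes. With median-ratio scaling 5 of the 6 were lower, against 25.2%, and Col1a1 passed the filter only because of its rGST libraries. Of 9 smooth muscle and pericyte markers, 6 stayed under 1 TPM in all libraries, the defining marker Myh11 at a mean of 0.0933 with rGST and 0.0200 with rSLURP1, and the list summed to between 7.77 and 10.1 TPM with rGST and between 3.54 and 3.83 with rSLURP1. All 5 endothelial and all 5 hematopoietic markers stayed under 1 TPM. The part of the mesenchymal and smooth muscle markers in the results on contractile genes was not tested.

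Contractile actin genes were lower in rSLURP1 than in rGST spheroids wherever they could be tested, although Actg1 was not once libraries were scaled by their median ratio. Cnn2, Tpm1, Actb and Srf, all well expressed, were lower by between 1.66-fold and 3.82-fold, and Acta2 was 6.45-fold lower at a low level. Actg1 was the least lowered, by 1.23-fold. Tagln, Myl9 and Cnn1 lay under 1 TPM in all libraries. Expression was compared on the scale of log2(TPM + 1) with limma, a linear model fitted to all 12301 genes that reached 1 TPM in at least 3 libraries, and p-values were adjusted by the Benjamini-Hochberg method over all of them. Of the 10 genes, 7 passed this filter and all 7 were lower at an adjusted p of at most 0.05, which 58.5% of all tested genes also were. In all 7 the rSLURP1 and rGST libraries did not overlap (exact permutation test, two-sided p = 0.1 each, the smallest possible), as in 61.7% of all tested genes, where rSLURP1 was lower. Acta2 and Tpm2 passed only because of their rGST libraries. Of the 5 genes that reached 1 TPM in all 6 libraries, all were lower when only such genes were fitted, against 61.3% of all genes of that kind. At a fold change of at least 2 as well, 2 were lower, Acta2 and Cnn2, against 7.06% of tested genes.

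The background matters because TPM is relative. The median log2 fold change of all tested genes was -0.33, and it was -0.73 over the 10 contractile genes, with the untested ones taken from a fit without the filter. When libraries were scaled by their median ratio to the geometric mean of each gene, which brings the median of all genes close to 0, 6 of the 7 were lower (4 of 5 without Acta2 and Tpm2), against 25.2% of tested genes, and Actg1 turned from -0.30 to 0.05. Once values were corrected for the length and GC content of transcripts, Srf, Acta2, Actb, Tpm1 and Cnn2 were lower, against 21.9%. Without Acta2 and Tpm2, 4 of 5 were lower here too. None of the 7 was higher under either setting, against 26.0% and 27.0% of all tested genes.

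**Figure D1:**
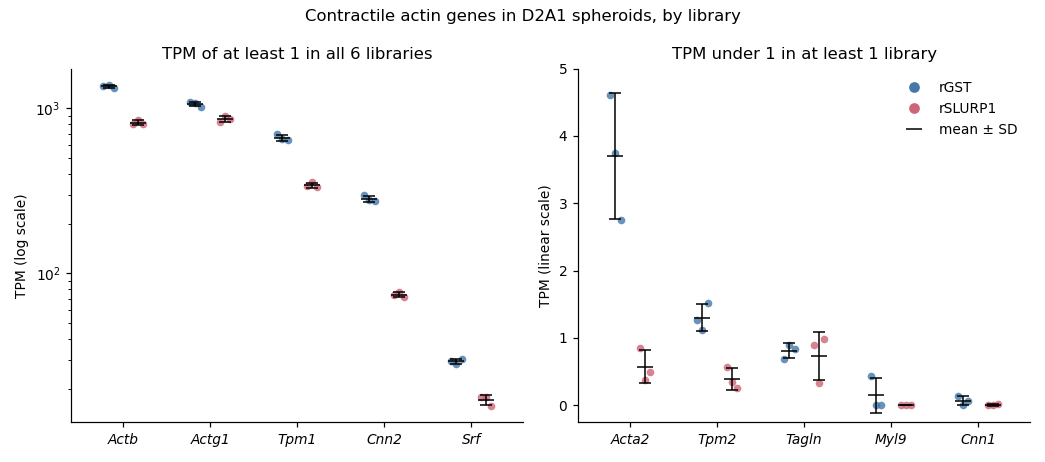
Expression of the 10 contractile actin genes in each library, in TPM, on a log axis for the genes with at least 1 TPM in all 6 libraries (left) and on a linear axis for the others (right). Points are libraries, and bars give the mean ± SD of the 3 rGST or the 3 rSLURP1 libraries. In all 5 genes on the left and in Acta2 and Tpm2 the groups do not overlap, while Tagln overlaps and Myl9 and Cnn1 lie close to 0.

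Srf, the transcription factor itself (ENSMUSG00000015605.5, GRCm38 chromosome 17, 46548329 to 46556175, minus strand, protein coding as are the other 9), had 29.4, 28.3 and 30.1 TPM with rGST and 17.8, 17.7 and 15.7 TPM with rSLURP1. The groups did not overlap, and all rSLURP1 libraries were below all rGST libraries. Mean Srf expression was 29.3 ± 0.917 TPM with rGST and 17.1 ± 1.19 TPM with rSLURP1 (SD, n = 3 each). This is a log2 fold change of -0.74 (95% confidence interval -0.90 to -0.58, adjusted p = 6.52e-05 in limma). Of all tested genes, 15.2% had a more negative value. With median-ratio scaling Srf was at -0.41 (adjusted p = 0.00166).

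Among 8 cofactors and regulators of SRF, 7 could be tested, and 6 of them were lower and none higher in limma, against 58.5% and 8.66% of all tested genes. Their median log2 fold change of -0.31 was close to that of all tested genes. Mkl1, which encodes MRTF-A, had 25.8 ± 1.2 TPM with rGST and 16.4 ± 0.643 with rSLURP1 (log2 fold change -0.62, adjusted p = 1.1e-04), and was still lower with median-ratio scaling (-0.28, adjusted p = 0.00587) but did not pass after the length and GC correction (-0.15, adjusted p = 0.078). Mkl2, which encodes MRTF-B, had 12.6 ± 1.80 and 9.91 ± 0.554 TPM. Its groups overlapped, and its log2 fold change of -0.31 (adjusted p = 0.0402) turned to 0.02 with median-ratio scaling. Fhl2, a LIM domain protein that binds SRF, was at -0.69 (adjusted p = 0.0045), and Scai, a suppressor of MRTF activity, at -0.34 (adjusted p = 0.0131). Elk3 and Elk4 were lower and Elk1 did not pass the test. Myocd, the myocardin gene of heart and smooth muscle, was listed at 0 in all rGST libraries and had a mean of 0.0133 TPM with rSLURP1. With median-ratio scaling Mkl1 was lower and Elk1 higher, and the other 5 did not pass. Elk3 was higher after the length and GC correction (0.20, adjusted p = 0.0195), and no cofactor was lower once the replicate number was added to that correction as a block.

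Actb and Actg1, the cytoplasmic beta and gamma actins found in all cells, were the most abundant of the contractile genes, and their order changed between treatments. Actb (ENSMUSG00000029580.14, chromosome 5, 142903115 to 142906754, minus strand) had 1358, 1388 and 1319 TPM with rGST and 804, 848 and 804 TPM with rSLURP1. The lowest rGST library was far above the highest rSLURP1 library. The means were 1355 ± 35.0 and 819 ± 25.6 TPM (SD, n = 3 each), and the log2 fold change was -0.73 (95% confidence interval -0.82 to -0.64, adjusted p = 5.15e-06 in limma).

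Actg1 (ENSMUSG00000062825.15, chromosome 11, 120345690 to 120348542, minus strand), whose promoter holds 1 of the boxes above, had 1087, 1078 and 1023 TPM with rGST and 829, 903 and 856 TPM with rSLURP1. Here too the groups were apart, by a smaller gap. The means of 1063 ± 34.4 and 863 ± 37.3 TPM gave a log2 fold change of -0.30 (95% confidence interval -0.40 to -0.20, adjusted p = 6.35e-04 in limma), which is close to the median of all tested genes. With median-ratio scaling Actg1 was at 0.05 (95% confidence interval -0.03 to 0.14, adjusted p = 0.255), while Actb was still lower at -0.37 (adjusted p = 6.89e-05). Actg1 has 6 near-identical processed pseudogenes, which together held at most 1.51% of the sum of their TPM and that of Actg1 in any library.

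Acta2, the smooth muscle alpha actin gene (ENSMUSG00000035783.8, chromosome 19, 34241090 to 34255590, minus strand), had 4.61, 3.74 and 2.75 TPM with rGST and 0.850, 0.370 and 0.500 TPM with rSLURP1. All rSLURP1 libraries were below 1 TPM and all rGST libraries above it. The means, 3.70 ± 0.931 and 0.573 ± 0.248 TPM (SD, n = 3 each), differed 6.45-fold. On the log2(TPM + 1) scale, which understates the change of low genes, the log2 fold change was -1.57 (95% confidence interval -2.03 to -1.11, adjusted p = 3e-04 in limma). A pseudocount of 0.1 gave -2.53, and median-ratio scaling -1.37 (adjusted p = 0.00114). Actg2, the smooth muscle gamma actin gene, averaged 1.64 ± 0.885 TPM with rGST and 0.0900 ± 0.156 with rSLURP1 and did not pass the filter. In a fit without the filter it was lower at -1.23 (adjusted p = 0.0123). Acta1 and Actc1, the skeletal and cardiac actins, were at or near 0.

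Tpm1 and Tpm2 encode tropomyosins, rod-shaped proteins that lie along actin filaments. Tpm1 (ENSMUSG00000032366.15, chromosome 9, 67022590 to 67049406, minus strand) had 694, 648 and 646 TPM with rGST and 339, 356 and 333 TPM with rSLURP1. Every rSLURP1 library was below every rGST library, and the means were 663 ± 27.0 and 343 ± 11.9 TPM (SD, n = 3 each). Its log2 fold change was -0.95 (95% confidence interval -1.05 to -0.85, adjusted p = 2.96e-06 in limma), and 8.18% of tested genes had a more negative value. Under median-ratio scaling Tpm1 was at -0.60 (adjusted p = 1.83e-05). Tpm2 (ENSMUSG00000028464.16, chromosome 4, 43514711 to 43523765, minus strand) was a low gene, with 1.27, 1.12 and 1.52 TPM against 0.570, 0.350 and 0.260 TPM. Its groups did not overlap, and its log2 fold change was -0.73 (95% confidence interval -1.12 to -0.33, adjusted p = 0.00623 in limma), or -1.55 with a pseudocount of 0.1. After the length and GC correction it was at -0.40 and no longer passed the test (adjusted p = 0.0868).

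Cnn2, a calponin of non-muscle cells that binds actin (ENSMUSG00000004665.10, chromosome 10, 79988584 to 79996062, plus strand), had the most negative log2 fold change of the 7 tested genes with a pseudocount of 1, whereas Acta2 had it with a pseudocount of 0.1. It had 298, 279.55 and 275 TPM with rGST and 73.85, 76.8 and 72.2 TPM with rSLURP1. All libraries of a group lay close together, and the groups were far apart. The means were 284.0 ± 12 and 74.3 ± 2.32 TPM (SD, n = 3 each), 3.82-fold lower with rSLURP1, with a log2 fold change of -1.92 (95% confidence interval -2.03 to -1.81, adjusted p = 2.17e-07 in limma). Of all tested genes, 1.60% had a more negative value. Scaling by median ratio left it at -1.57 (adjusted p = 4.72e-07), and the length and GC correction at -1.56 (adjusted p = 7.08e-07).

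**Figure D2:**
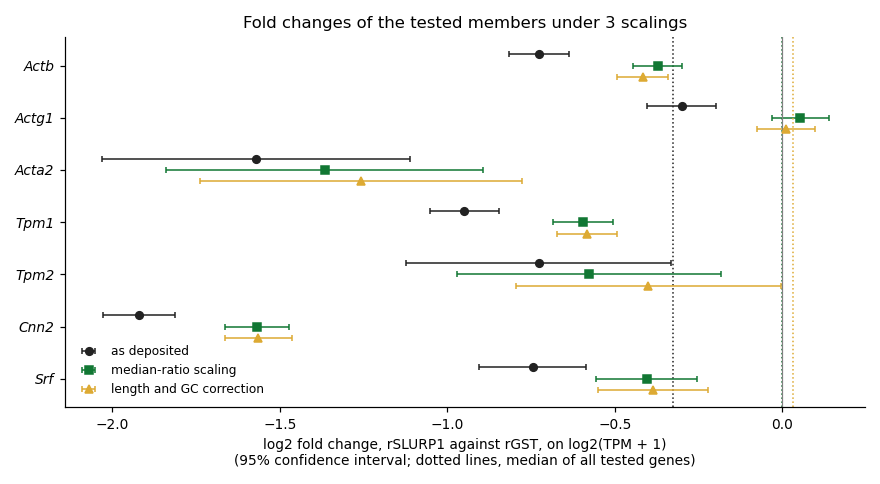
Log2 fold change of the 7 tested genes, rSLURP1 against rGST, on the log2(TPM + 1) scale, with 95% confidence intervals, for TPM as deposited, with median-ratio scaling and with a length and GC correction. Dotted lines give the median of all tested genes, -0.33 as deposited. Cnn2, Acta2, Tpm1, Actb and Srf stay below 0 under all 3, whereas Actg1 lies at 0.05 and 0.01 under the last 2 and the interval of Tpm2 reaches close to 0 after the correction.

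Tagln, Myl9 and Cnn1, also genes of smooth muscle like Acta2 above, lay under 1 TPM in all libraries. Tagln, which encodes SM22 alpha (ENSMUSG00000032085.5, chromosome 9, 45929619 to 45936058, minus strand), had 0.690, 0.900 and 0.840 TPM with rGST and 0.900, 0.330 and 0.980 TPM with rSLURP1. The highest and the lowest library both belonged to rSLURP1, and the groups overlapped. Without the filter its log2 fold change was -0.08 (adjusted p = 0.756 in limma). Tagln also shares 404 bases with an antisense gene, RP23-228B2.5, which averaged 0.567 and 0.677 TPM. Whether the counting used strand is not stated, so reads of this pair may not be told apart. Myl9, a regulatory light chain of smooth muscle and non-muscle myosin (ENSMUSG00000067818.6, chromosome 2, 156775420 to 156781658, plus strand), was listed at 0.440 TPM in 1 rGST library and at 0 in the other 5 libraries. Cnn1, the smooth muscle calponin (ENSMUSG00000001349.5, chromosome 9, 22099216 to 22109630, plus strand), was listed at 0.140, 0 and 0.0700 TPM with rGST and at 0, 0 and 0.0200 TPM with rSLURP1. No difference was detectable in Tagln, Myl9 or Cnn1 at these levels.

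By level, the order with rGST was Actb, Actg1, Tpm1, Cnn2, Srf, Acta2, Tpm2, Tagln, Myl9 and Cnn1. With rSLURP1 it was Actg1, Actb, Tpm1, Cnn2, Srf, Tagln, Acta2, Tpm2, Cnn1 and Myl9. Within rSLURP1, Actb and Actg1 were close, with 804 to 848 against 829 to 903 TPM, and Acta2, Tpm2 and Tagln overlapped one another. Ranked among all genes in the table by mean TPM, Actb moved from 103 to 162, Actg1 from 136 to 159, Tpm1 from 196 to 334 and Cnn2 from 460 to 1696.

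Shares within a gene family do not depend on how libraries are scaled, so isoforms were compared as a percentage of their family's summed TPM in each library. The shares of Actb, Tpm1 and Cnn2 were smaller in all rSLURP1 libraries, with no overlap between treatments. With 3 libraries against 3, an exact permutation test cannot give a two-sided p below 0.1, and 9 of the 10 shares reached it (adjusted p = 0.111 over the 10 shares). Shares of a family add up to the whole, so these are not independent results. Actb and Actg1 nearly mirror each other, as do Cnn2 and Cnn3. Shares in other gene families were not computed. Actb made up 55.4%, 56.2% and 56.2% of the TPM of Acta2, Actb and Actg1 with rGST and 49.2%, 48.4% and 48.4% with rSLURP1. Its mean share was 7.28 percentage points lower with rSLURP1 and that of Actg1 7.40 points higher, at 43.9 ± 0.420% and 51.3 ± 0.470% (SD, n = 3 each). The ratio of Actb to Actg1 was thus above 1 in all rGST libraries and below 1 in all rSLURP1 libraries, at 1.28 ± 0.0224 and 0.949 ± 0.0177.

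Tpm1 accounted for 49.2 ± 1.5% of the TPM of the 4 tropomyosin genes with rGST and 36.4 ± 1.08% with rSLURP1, a difference of -12.8 points. The share of Tpm4 was 7.91 points higher and that of Tpm3 4.98 points higher with rSLURP1. Tpm3 and Tpm4 were themselves a little lower in TPM, at log2 fold changes of -0.21 and -0.17 (adjusted p = 0.0227 and 0.0237 in limma). With median-ratio scaling they turned to 0.15 and 0.18. Calponins had the largest differences of these shares, 21.4 points. Cnn2 was 57.1%, 54.7% and 56.3% of the calponin TPM with rGST and 34.3%, 34.7% and 34.9% with rSLURP1, and Cnn3, the acidic calponin, was the larger share in all rSLURP1 libraries. Cnn3 itself was also lower, from 222.9 ± 9.38 to 140.0 ± 5.01 TPM (log2 fold change -0.67, adjusted p = 1.8e-05 in limma). Summed over each family, rSLURP1 libraries had 69.5% of the rGST level for the actins, 70.0% for the tropomyosins and 42.3% for the calponins.

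**Figure D3:**
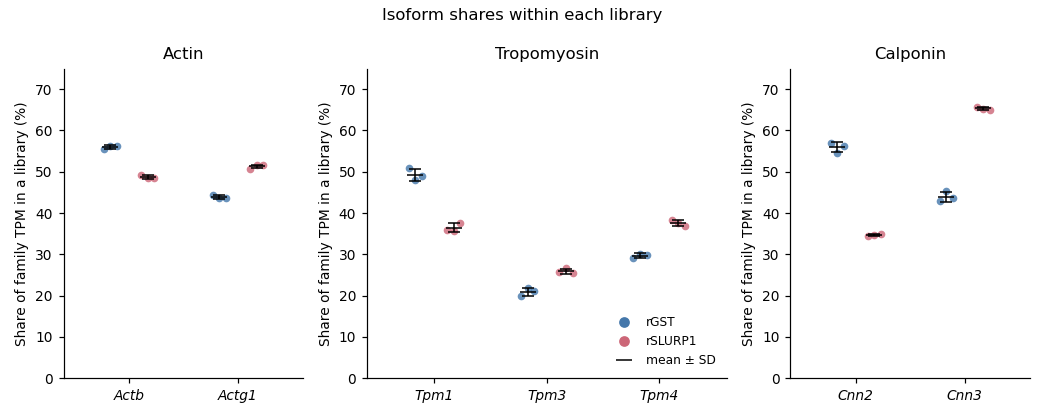
Share of each isoform in the summed TPM of its family, in percent, in each library, for actins, tropomyosins and calponins. Points are libraries and bars give the mean ± SD of 3 libraries. Actb and Actg1 exchange places at about 50%, Tpm1 goes from 49.2% to 36.4%, and Cnn2 goes from 56.0% to 34.7% while Cnn3 goes from 44.0% to 65.3%. Shares under 1% are not drawn.

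To set the contractile genes beside the rest of their pathway, 6 further lists with 96 genes were examined, of which 86 could be tested, and 5 of the lists are described one by one. Of these, 62 were lower and 9 higher, against 58.5% and 8.66% of all tested genes. With median-ratio scaling 35 were lower and 30 higher, against 25.2% and 26.0%. Of the 35 lower genes under that scaling, 16 came from the list of other targets of SRF and MRTF, most of them cytoskeletal.

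Of 25 other targets of SRF and MRTF, most of them cytoskeletal, 22 could be tested. Of these, 21 were lower and 1 higher, against 58.5% and 8.66% of all tested genes. Their median log2 fold change was -0.64, beside -0.33 over all tested genes. Ctgf, a matricellular protein gene, fell from 37.3 ± 2.35 to 4.52 ± 0.289 TPM, an 8.24-fold difference (log2 fold change -2.79, adjusted p = 3.46e-07 in limma). Cyr61, a related matricellular gene, fell from 309 ± 27.3 to 123 ± 14.2 TPM (log2 fold change -1.33). Lima1, which stabilizes actin filaments, had a log2 fold change of -1.23, and Vcl, the focal adhesion protein vinculin, -1.06 (adjusted p = 4.02e-06 and 8.49e-06). With median-ratio scaling 16 of the 22 were still lower, against 25.2% of all tested genes, Vcl at -0.71 among them. After the length and GC correction 14 were lower, against 21.9% of all tested genes. With the replicate block added to that correction 13 were lower, against 2468 of 12293 genes. The gene that was higher was Filip1l, chosen after its value was seen. It had 31.6 and 40.1 TPM (log2 fold change 0.34, adjusted p = 0.0183), and it no longer passed without the filter or without the first or the second rSLURP1 library.

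Paralogs of the contractile genes did not all go the same way. Of 7 tested, 6 were lower and Tagln2 was higher, against 58.5% and 8.66% of all tested genes. Tagln2, the form of transgelin found outside smooth muscle, rose from 98.8 ± 14.6 to 186.2 ± 16.7 TPM (log2 fold change 0.91, adjusted p = 2.27e-04 in limma), or 1.27 after median-ratio scaling. In single libraries its TPM was between 105 and 611 times that of Tagln, which lay under 1 TPM throughout. The highest ratio came from the rSLURP1 library with Tagln at 0.33 TPM, so the range reflects values near the floor. Myl6, the essential light chain of non-muscle myosin, fell from 765 ± 8.35 to 486 ± 21.6 TPM (log2 fold change -0.65, adjusted p = 1.03e-05). With median-ratio scaling Cnn3, Myl6, Myl12a and Myl12b were lower, and Tagln2 and Tpm4 were higher, against 25.2% and 26.0% of all tested genes.

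Immediate early genes, which SRF drives with ternary complex factors, were split. Among 12 genes, Srf included, 6 were lower and 4 higher, against 58.5% and 8.66% of all tested genes. Their median log2 fold change was 0.04. Fos rose from 4.72 ± 1.0 to 16.1 ± 1.12 TPM (log2 fold change 1.60, adjusted p = 4.06e-05 in limma), and Ier3 from 410.0 ± 10.9 to 795 ± 117 TPM (0.94, adjusted p = 9.92e-05). Egr3 fell from 6.71 ± 0.838 to 1.52 ± 0.314 TPM (log2 fold change -1.62, adjusted p = 5.12e-05). These directions held with median-ratio scaling, at 1.91, 1.3 and -1.35. Over the whole list 5 genes were then lower and 7 higher, against 25.2% and 26.0% of all tested genes.

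Of 21 tested genes of actin monomer binding and filament turnover, 14 were lower and none higher, against 58.5% and 8.66% of all tested genes, with a median of -0.15. With median-ratio scaling 4 were lower and 12 higher, against 25.2% and 26.0%. The lower ones were led by Gsn, the filament-severing protein gelsolin, at -0.86 (150.8 ± 7.42 and 82.8 ± 1.86 TPM, adjusted p = 6.81e-06 in limma). They included Pfn2, a profilin, at -0.81 and Svil, supervillin, at -0.75 (adjusted p = 3.52e-05 and 1.28e-04). These 3 and Capzb were the genes still lower with median-ratio scaling.

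**Figure D4:**
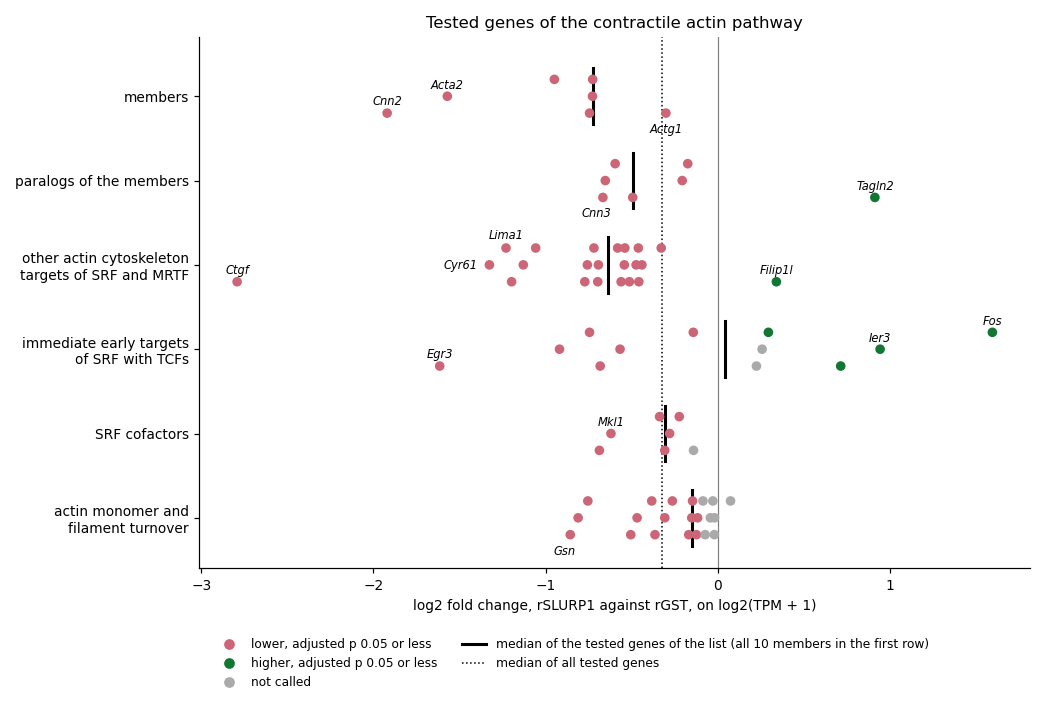
Log2 fold change, rSLURP1 against rGST on the log2(TPM + 1) scale, of the tested genes of the contractile actin group and of 5 further lists, with 1 point for each gene, colored by the limma call at an adjusted p of 0.05. Thick bars give the median of the tested genes of each list, and for the contractile genes that of all 10, the untested ones taken from a fit without the filter, and the dotted line gives the median of all tested genes. TCFs are ternary complex factors. The contractile genes (median -0.73) and the other targets of SRF and MRTF, most of them cytoskeletal (-0.64), lie to the left of the dotted line. The immediate early genes (0.04) and turnover genes (-0.15) lie to its right.

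The genes most like a given gene were found as those with the smallest root mean square difference over the 6 libraries in log2(TPM + 1) after subtraction of the rGST mean. For Srf, Fam126a and Mocos were among the 3 nearest, with differences of 0.0272 and 0.0285 log2 units. For Acta2 they were Egr3, Cav1 and Hddc3, at 0.0924, 0.108 and 0.122. For Tagln they were RP23-145N17.1, RP23-354F11.5 and Cks2, at 0.0808, 0.0926 and 0.0961. All were taken from the tested genes outside the group, and the likeness was not tested.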

How the data were processed

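Per the labels, RNA was extracted with an RNeasy kit and libraries were made with a TruSeq mRNA kit, whereas the study's methods name the Smart-seq2 protocol. Per the submitters' processing notes, bcl2fastq 2.20, cutadapt 1.18, STAR 2.5.2b and RSEM 1.3.3 were used with the mm10 genome. The study's methods name cutadapt for trimming adapters, STAR for alignment and RSEM for gene quantification. They give the same STAR version but other versions of cutadapt and RSEM. Their GENCODE annotation is an earlier release than the M21 used here for gene positions. The study's methods give the harvest day. The authors deposited 1 table of gene-level TPM values, scaled by transcript length and library total, for all 6 libraries. Read depth cannot be recovered from TPM, and depth and counting error are therefore unknown.

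Genes with at least 1 TPM in at least 3 libraries were fitted on log2(TPM + 1) with limma 3.58.1 (eBayes with trend, R 4.3.3), with Benjamini-Hochberg adjustment over all 12301 genes, and called at an adjusted p of 0.05 or less. The fit was tested on simulated data. Shares were compared by two-sided exact permutation tests. Near-identical copies were sought with BLAST 2.17.0 in GENCODE M21 transcripts (at least 95% identity over 200 bases). Gene positions come from GENCODE M21, where 54079 of 54146 gene IDs were found without regard to version, and promoter sequences from RefSeq. Alternatives were the pseudocount, filters, 3 other scalings, a length and GC correction, the variance model, the replicate number as a block and leaving out each library.

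The members and gene lists were chosen with earlier results of these data known. Named are all members, the 3 called genes with the largest change in each list, genes set by name (Tpm3, Tpm4, Cnn3, Tagln2, Actg2, Mkl1, Mkl2, Myocd and Vcl) and the 3 genes nearest in profile to Srf, Acta2 and Tagln. Other genes named were chosen after their values were seen. The genes of 1 list and 1 gene near in profile are not reported here.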

Additional observations from a re-analysis of the deposited data

How the results depend on the processing

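The median log2 fold change of all tested genes was -0.33 as deposited, -0.0012 after median-ratio scaling, 0.02 after quantile normalization and 0.03 once corrected for length and GC. In the same order, lower genes made up 7200 of 8265 calls, 3094 of 6292, 2905 of 6016 and 2690 of 6010. Actg1 reversed to 0.053 with median-ratio scaling (adjusted p = 0.255 in limma) and to 0.012 when corrected for length and GC, whether the replicate block was used (adjusted p = 0.81) or not (0.808). Tpm2 no longer passed with quantile normalization (-0.38, adjusted p = 0.117) or when corrected for length and GC (-0.40, adjusted p = 0.0868, and 0.132 with the block). The median of the 10 contractile genes was -0.39 with median-ratio scaling. Genes of the wider lists that were lower went from 62 to 35 (median ratio), 36 (quantiles), 29 (length and GC) and 25 (length and GC plus block), and genes that were higher went from 9 to 30, 20, 30 and 28. With a pseudocount of 0.1, Acta2 was at -2.53 and Tpm2 at -1.55. A fold change of at least 2 left 2 contractile genes lower. With Tpm1 and Tpm2 alone in the sum, the share of Tpm1 was 0.082 points higher and that of Tpm2 differed by -0.082 points.

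Across the fits that each left out 1 library, log2 fold changes ranged from -1.72 to -1.43 for Acta2, from -0.82 to -0.66 for Tpm2 and from -0.33 to -0.27 for Actg1, and all 7 genes kept their calls. Same-numbered libraries did not deviate together (mean correlation -0.050). The mean of 0.025 for other pairs is no separate comparison, because deviations were taken from each group's mean, which ties the 2 values together. With the replicate block, 7962 genes were called and all 7 contractile genes were still lower. Acta2 and Tpm2 could not be fitted with at least 1 TPM required in all 6 libraries. Read depth is unknown, so what it limits in the low genes could not be assessed.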
